A study of Homo sapiens with 6 samples.

Results

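The genes described here are 10 that promote or restrain passage through G1, the phase before DNA synthesis. They include the D-type cyclins CCND1, CCND2 and CCND3 and the E-type cyclins CCNE1 and CCNE2. The others are the kinases CDK4 and CDK6 and the CIP/KIP inhibitors CDKN1A, CDKN1B and CDKN1C. All 10 were taken by name from a table of raw RNA-seq counts for 61228 genes. Each was present and passed the filter on low counts, which kept 14704 genes. The libraries are of MDA-MB-231, a human triple-negative breast cancer line, grown in droplets of collagen I. In 3 libraries (KO) the cells had been given Cas9 with guides against ETV1, ETV4 and ETV5, the PEA3 group of ETS transcription factors, and in 3 libraries (control) they had been given Cas9 with control guides. Both groups had therefore been nucleofected with Cas9. The collagen concentration of each library is not stated. KO sample titles name ETV4 alone, and KO library names all carry the tag c39, whose meaning is not given. Whether the KO libraries come from a single clone is not stated, so an effect of the knockout and a property of a clone cannot be told apart.

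Mitogen signals raise the D-type cyclins, which bind CDK4 or CDK6 and begin the phosphorylation of the retinoblastoma protein RB. Released E2F factors then induce the E-type cyclins, which bind CDK2 and complete that step, so that S phase genes are transcribed. The CIP/KIP proteins p21, p27 and p57, the products of CDKN1A, CDKN1B and CDKN1C, inhibit cyclin-CDK2 complexes, and p21 and p27 also help assemble cyclin D with its kinases. Much of this control acts on protein stability and phosphorylation, which mRNA counts do not show.

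Libraries held 18042601 to 19250921 counts in KO and 18806653 to 23232770 in control. Replicate 3 of each group stood apart. Across 10032 genes, the deviation of KO replicate 3 from its group mean had a correlation of 0.83 with that of control replicate 3. With those of control replicates 1 and 2 it was -0.73 and -0.66 (genes are not independent replicates). Deviations within a group cancel out for each gene, so the negative values are not separate evidence. Results without both replicate 3 libraries, and from a fit with the replicate number as a block, are therefore given where they change a call. Nothing says that replicates are separate cultures, so each p-value reflects the spread among these libraries alone, which may be technical. Markers of the line (VIM, KRT8, KRT18, CD44, EGFR and AXL) were all present, and of 4 luminal markers the hormone receptor genes ESR1 and PGR had 2 and 1 counts over the 6 libraries. The luminal markers summed to 13.5 to 15.2 CPM in KO and 10.5 to 11.3 CPM in control, most of it GATA3 at 12.1 ± 0.326 CPM in KO and 9.43 ± 0.646 CPM in control, without overlap (edgeR adjusted p = 0.0589, and 0.00722 with the replicate block). FOXA1 stood at 2.38 ± 0.557 CPM in KO and 1.57 ± 0.339 CPM in control (SD, n = 3 each). Summed leukocyte markers were at 2.68 to 3.03 CPM in KO and 6.66 to 7.97 CPM in control, of which LYZ was the larger part in control, while CD3E had 0 counts; endothelial markers summed to 5.89 to 8.46 CPM in KO and 9.74 to 11.1 CPM in control, with CDH5 at 0 counts; fibroblast markers summed to 11.7 to 13.9 CPM in KO and 13.2 to 13.4 CPM in control. LYZ (edgeR adjusted p = 3.41e-04) and the endothelial gene PECAM1 (edgeR adjusted p = 0.02504) were lower in KO. The part of these low signals in the results was not tested. Of the targeted genes, ETV1 measured 135, 137 and 155 CPM in KO and 218, 213 and 238 CPM in control, and ETV4 measured 65.6, 61.5 and 64.0 CPM in KO and 95.3, 94.9 and 91.4 CPM in control. Both were lower in every KO library (edgeR adjusted p = 0.00125 and 6.12e-04). ETV5 measured 114, 113 and 112 CPM in KO and 117, 108 and 112 CPM in control (edgeR adjusted p = 0.932). Guide positions are unknown here, and the mRNA level does not show whether a protein was lost.

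CPM is the count divided by the TMM-scaled library total and given per 1e+06 counts, and a log2 fold change is KO relative to control, given with its standard error (SE). A gene is called where the Benjamini-Hochberg adjusted p of edgeR's quasi-likelihood test, adjusted over all 14704 genes, is below 0.05. CCNE2, CCND3 and CDKN1A rose in KO and none of the 10 genes fell (0 also at an unadjusted p below 0.05, and 0 with DESeq2 or limma-voom); CCND1, CCND2, CCNE1, CDK4, CDK6, CDKN1B and CDKN1C did not pass. Over all tested genes 3.28% were called higher, 6.42% lower and 9.70% in either direction. The median log2 fold change of the 10 genes was 0.19, against 0.00 over all tested genes, and 8 of the 10 values were positive. KO and control values did not overlap for 5 of the 10, all higher in KO (CCND3, CCNE1, CCNE2, CDK4 and CDKN1A), while over all tested genes 14.9% were separated with KO higher and 16.8% with KO lower. In bulk RNA, a change in the number of cells in a cycle phase and a change in RNA per cell cannot be told apart. The CCNE2 call held in every one of the 13 alternative fits. The calls for CCND3 and CDKN1A held in 8 of 13 each. Both were lost in 5 of the 6 fits that left out 1 library (all but that without KO replicate 3), without a change of direction.

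**Figure D1:**
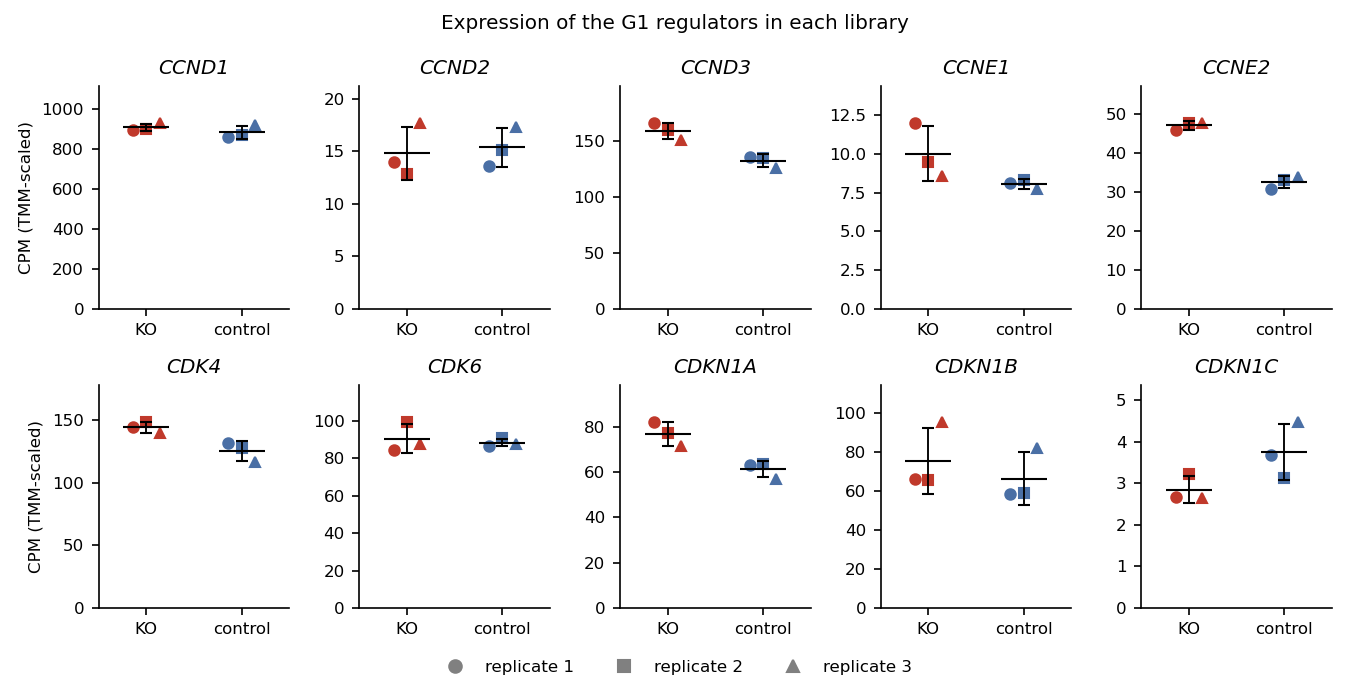
CPM of each of the 10 genes (vertical axes, each from 0) in the 3 KO libraries (red, left) and the 3 control libraries (blue, right); symbols give the replicate number, and bars the mean and SD. CCNE2, CCND3 and CDKN1A, which were called, and CCNE1 and CDK4, which were not, have all KO points above all control points. CDKN1B is highest in replicate 3 of both groups.

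The order of levels was set per kilobase of exon (GENCODE 29), since longer transcripts collect more reads. CCND1 was the most abundant of the 10 at 188 ± 3.64 CPM per kb in KO and 182 ± 6.64 in control (SD, n = 3 each, as for every ± below). CDK4 followed at 45.5 ± 1.34 CPM per kb in KO and 39.6 ± 2.51 in control. CDKN1B, CCND3 and CDKN1A came next, with means over the 6 libraries of 25.3, 25.0 and 22.7 CPM per kb, and their ranges overlapped. CCNE2 (9.05) and CDK6 (7.29) also overlapped in range, CCNE1 lay below them at 3.55 CPM per kb, and CCND2 (2.11) and CDKN1C (1.33) were the lowest and overlapped with each other. Exon lengths count all annotated transcripts of a gene, so a level is set too low where the transcript in use is shorter. Which transcript is in use was not measured, so the order and the shares below carry this limit.

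**Figure D2:**
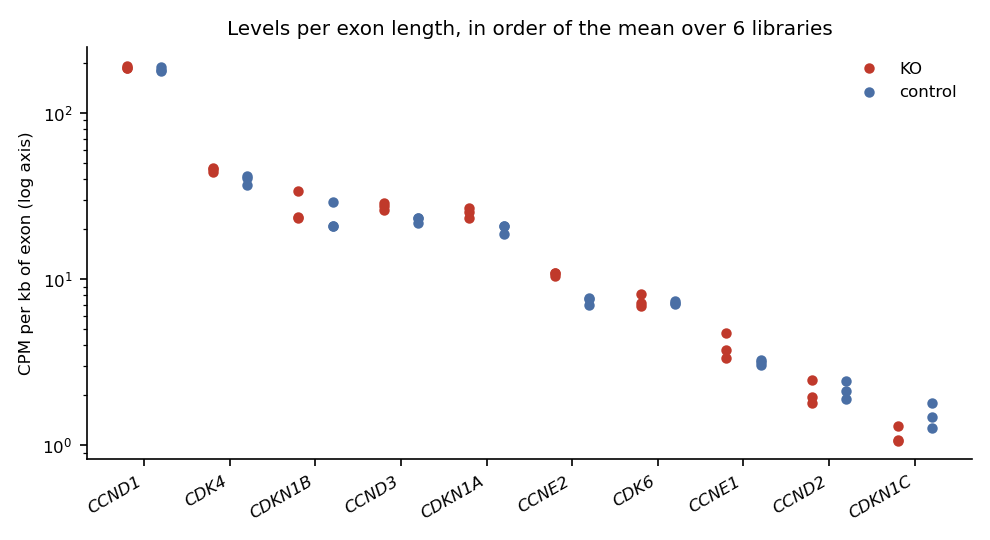
CPM per kb of exon (vertical axis, logarithmic) for each gene, ordered by the mean over 6 libraries, with KO points in red left of control points in blue. CCND1 lies above 177 CPM per kb in every library, and the other 9 genes lie below 47.

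Among the D-type and E-type cyclins, CCNE2 had the largest log2 fold change. CCNE2 encodes cyclin E2, the partner of CDK2 at the G1/S transition, and is itself induced by E2F (chromosome 8, 94879770 to 94896678, minus strand, GRCh38). CCNE2 measured 45.8, 47.7 and 47.7 CPM in KO and 30.8, 33.1 and 33.7 CPM in control. The KO values lay close together and well above every control value. The log2 fold change was 0.53 (SE 0.07, 95% interval 0.38 to 0.68, edgeR adjusted p = 0.00175), a 1.45-fold increase. It lay between 0.49 and 0.56 in the fits without 1 library, with edgeR adjusted p of 0.00239 to 0.0145. On the opposite strand, INTS8, an Integrator subunit gene, shares 1629 bases with CCNE2, 37.0% of its exon length; INTS8 measured 29.7 ± 2.35 CPM in KO and 24.6 ± 2.58 CPM in control (log2 fold change 0.27, SE 0.10, with edgeR adjusted p = 0.124). The strand setting of the counting is not given, and the part of INTS8 reads in the CCNE2 count was not tested.

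CCNE1, the other E-type cyclin gene (chromosome 19, 29811898 to 29824308), stood at 12.0, 9.50 and 8.59 CPM in KO and 8.13, 8.35 and 7.74 CPM in control. Every KO value was above every control value, but KO replicate 1 stood well above KO replicate 3. The log2 fold change was 0.31 (SE 0.14, 95% interval -0.00 to 0.63) and did not pass (edgeR adjusted p = 0.202). With the replicate block the edgeR adjusted p was 0.0396, and without both replicate 3 libraries it was 0.0397; without KO replicate 1 the log2 fold change was 0.18 (edgeR adjusted p = 0.502). CCNE1 rests on 155 to 224 counts per library. Per kilobase, CCNE2 made up 68.9%, 74.4% and 76.3% of the summed E-type cyclin level in KO and 68.7%, 69.7% and 71.7% in control, so its share in KO overlapped that in control. The E-type sum was 14.6 ± 0.465 CPM per kb in KO and 10.6 ± 0.327 in control, and as a ratio to the D-type sum it was 0.0674 ± 0.00285 in KO and 0.0510 ± 0.00147 in control.

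Of the D-type cyclins 1 was called, and differences between the 3 were not tested. CCND3, which encodes cyclin D3 (chromosome 6, 41934933 to 42050357, minus strand), measured 166, 159 and 151 CPM in KO and 136, 135 and 125 CPM in control. The groups did not overlap, and replicate 3 was the lowest library of each. CCND3 rose by a log2 fold change of 0.26 (SE 0.06, 95% interval 0.12 to 0.41, edgeR adjusted p = 0.0327), a 1.20-fold increase. The adjusted p was 0.0118 without KO replicate 3 and ran from 0.0699 to 0.117 without any other single library, with log2 fold changes of 0.23 to 0.32. CCND3, CCND2 and CDK4 have processed pseudogene copies in the genome, and how reads were divided with them is uncertain.

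CCND1 encodes cyclin D1, a mitogen-responsive cyclin often raised in breast cancer (chromosome 11, 69641087 to 69654474). CCND1 measured 895, 900 and 927 CPM in KO and 857, 869 and 917 CPM in control. The ranges overlapped, with control replicate 3 above KO replicates 1 and 2. LTO1, on the opposite strand, shares 10.3% of the CCND1 exon length. The log2 fold change was 0.04 (SE 0.06, with edgeR adjusted p = 0.722), with a 95% interval of -0.09 to 0.18. CCND2, the gene of cyclin D2 (chromosome 12, 4273772 to 4305350), measured 13.9, 12.8 and 17.7 CPM in KO and 13.6, 15.1 and 17.3 CPM in control (log2 fold change -0.06, SE 0.14, 95% interval -0.38 to 0.27, edgeR adjusted p = 0.857). Its ranges overlapped, and an annotated same-strand gene shares 13.8% of its exon length. The sign turned in the fits without KO replicate 2 and without control replicate 3 (0.04 in each). Per kilobase, CCND1 made up 85.9%, 86.5% and 87.1% of the D-type sum in KO and 87.5%, 87.7% and 88.8% in control. The share of CCND3 was 13.2%, 12.7% and 11.8% in KO and 11.5%, 11.3% and 10.1% in control, without overlap, and CCND2 held 0.902%, 0.831% and 1.12% in KO and 0.938%, 1.03% and 1.13% in control. The summed D-type level was 217 ± 2.79 CPM per kb in KO and 207 ± 5.93 in control.

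**Figure D3:**
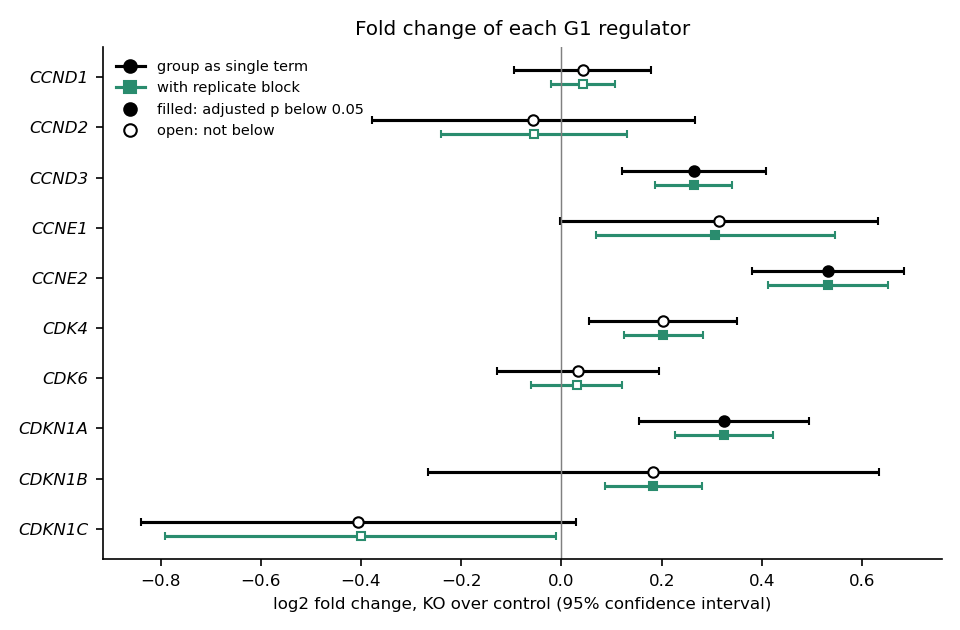
log2 fold change of each gene, KO over control (horizontal axis), with its 95% confidence interval, from the fit with group as the single term (black circles) and with the replicate block (green squares); filled symbols have an adjusted p below 0.05. CCNE2 is farthest right at 0.53, and the interval of CDKN1B spans -0.27 to 0.63 in the first fit and 0.09 to 0.28 in the second.

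Neither kinase that binds cyclin D passed the test. CDK4 (chromosome 12, 57747727 to 57756013, minus strand) measured 145, 148 and 140 CPM in KO and 132, 128 and 116 CPM in control. All KO values were above all control values. The log2 fold change of 0.20 (SE 0.06, 95% interval 0.06 to 0.35) did not pass (edgeR adjusted p = 0.0892), whereas with the replicate block CDK4 was higher in KO (edgeR adjusted p = 4.02e-05), as it was without both replicate 3 libraries (edgeR adjusted p = 0.00683) and without KO replicate 3 alone (edgeR adjusted p = 0.0441). TSPAN31, a tetraspanin gene on the opposite strand, shares 43.2% of the CDK4 exon length; it measured 13.8 ± 0.202 CPM in KO and 16.9 ± 1.06 CPM in control (log2 fold change -0.28, SE 0.09, with edgeR adjusted p = 0.0824). CDK6 (chromosome 7, 92604921 to 92836594, minus strand) measured 84.6, 99.2 and 87.6 CPM in KO and 86.8, 90.7 and 87.8 CPM in control. KO replicates held both the lowest and the highest value. Its log2 fold change was 0.03 (SE 0.07, 95% interval -0.13 to 0.19, edgeR adjusted p = 0.826), and without KO replicate 2 it was -0.03. Per kilobase, CDK4 was 6.19 ± 0.420 times CDK6 in KO and 5.49 ± 0.375 times in control, and the ranges of that ratio overlapped.

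Of the inhibitors, CDKN1A was called. CDKN1A encodes p21, which p53 induces after DNA damage and which many other signals also regulate (chromosome 6, 36676460 to 36687339). CDKN1A measured 81.9, 77.2 and 71.4 CPM in KO and 63.3, 63.7 and 57.1 CPM in control. The lowest KO value was above the highest control value, and replicate 3 was the lowest of each group. CDKN1A rose by a log2 fold change of 0.33 (SE 0.07, 95% interval 0.16 to 0.49, edgeR adjusted p = 0.02795). The adjusted p was 0.00801 without KO replicate 3 and between 0.0627 and 0.101 without any other single library, with log2 fold changes of 0.27 to 0.40.

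CDKN1B encodes p27, an inhibitor tied to quiescence (chromosome 12, 12715058 to 12722371). CDKN1B measured 66.0, 65.5 and 95.4 CPM in KO and 58.4, 59.0 and 82.2 CPM in control. Replicate 3 was far above replicates 1 and 2 in both groups, and control replicate 3 exceeded KO replicates 1 and 2. The log2 fold change was 0.18 (SE 0.19, 95% interval -0.27 to 0.63, edgeR adjusted p = 0.615). It was 0.00 without KO replicate 3 and 0.37 without control replicate 3. Within replicate numbers, KO over control gave log2 ratios of 0.18, 0.15 and 0.22. The block fit gave 0.18 (SE 0.05, with edgeR adjusted p = 0.00204), and the fit without both replicate 3 libraries gave 0.16 (edgeR adjusted p = 0.0423). CDKN1C, the imprinted gene of p57 (chromosome 11, 2883213 to 2885773, minus strand), measured 2.68, 3.22 and 2.64 CPM in KO and 3.69, 3.12 and 4.46 CPM in control. It rests on 48 to 105 counts per library, and KO replicate 2 lay above control replicate 2. The log2 fold change of -0.40 (SE 0.19, 95% interval -0.84 to 0.03) did not pass (edgeR adjusted p = 0.229), and it was -0.26 without control replicate 3 and -0.21 without both replicate 3 libraries.

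Per kilobase, the summed CIP/KIP level was 51.4, 49.9 and 58.4 CPM per kb in KO and 43.0, 43.1 and 49.8 in control. CDKN1A and CDKN1B made up nearly all of it: CDKN1A held 52.2%, 50.7% and 40.1% in KO and 48.3%, 48.4% and 37.6% in control, and CDKN1C held 2.18 ± 0.394% in KO and 3.33 ± 0.365% in control. CDKN1A stood at 1.14, 1.09 and 0.690 times CDKN1B in KO and at 0.999, 0.996 and 0.640 times CDKN1B in control, lowest in replicate 3 of both groups. The ratio of the CIP/KIP sum to the D-type cyclin sum was 0.238, 0.232 and 0.265 in KO and 0.212, 0.210 and 0.233 in control. These ranges overlapped between KO replicate 2 and control replicate 3, and within each replicate number the KO ratio was the higher.

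**Figure D4:**
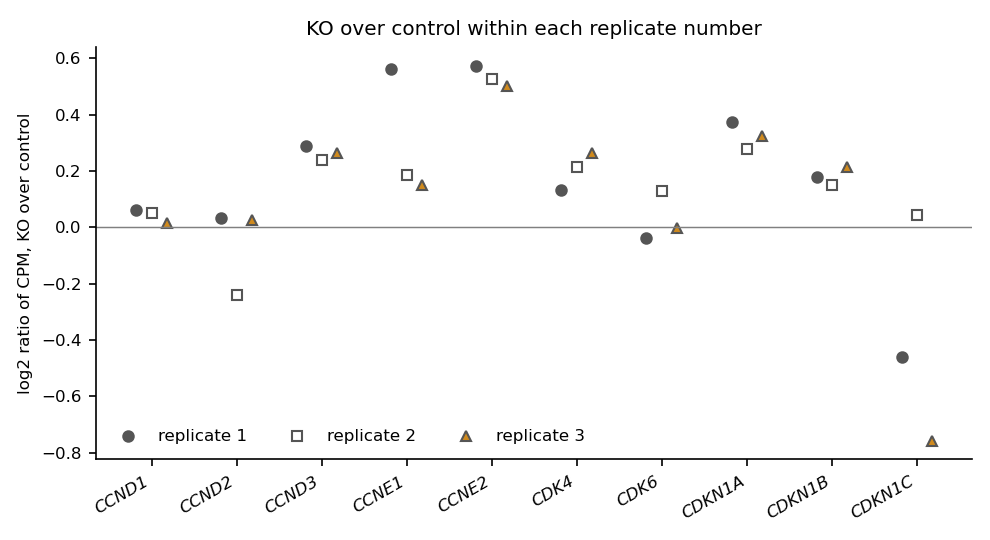
log2 ratio of CPM, KO over control (vertical axis), for the libraries that share a replicate number, for each gene. CCNE2 lies between 0.50 and 0.57 in all 3, CDKN1B between 0.15 and 0.22, and CDKN1C between -0.76 and 0.04.

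In same-numbered libraries, 7 of the 10 genes were higher in KO all 3 times, as were 29.4% of all tested genes. With the replicate block 6 of the 10 passed, all higher: CCND3, CCNE1, CCNE2, CDK4, CDKN1A and CDKN1B, against 17.2% of all genes higher and 16.7% lower. Without both replicate 3 libraries (an alternative added once the data had been examined), 6 of the 10 were also higher and none lower, against 11.7% of all genes higher and 13.7% lower.

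Promoter sequence was examined because the targeted factors bind DNA at a GGAA core. RefSeq starts on GRCh38.p14 were on hand for 6 of the 10 genes (CCND3, CCNE1, CDK4, CDK6, CDKN1A and CDKN1B; 9 windows of 250 bases before a start), and each window was searched on both strands. The search was for the longer form CCGGAA, called the ETS core here. It was present in 2 of the 9 windows and in 14.5% of all 35116 RefSeq windows of that length. The 2 windows are that of CDKN1A and 1 of those of CCND3, whose most upstream window held no core. No window was on hand for CCNE2, and a link between the core and the change in expression was not tested. The sequences below are the parts of the CDKN1A and CCND3 windows that lie outside annotated UTRs, 5′ to 3′ on the gene's strand. CCGGAA is in capitals (TTCCGG is CCGGAA on the other strand). Further GGAA letters without CC before them occur in these stretches, were not searched for and are in lower case. The CDKN1A stretch is chr6:36678464-36678657 (plus strand), and the CCND3 stretches are chr6:41941849-41942058 and chr6:41939206-41939455 (minus strand). Each stretch lies inside the annotated span of its gene, before an internal start.
CDKN1A: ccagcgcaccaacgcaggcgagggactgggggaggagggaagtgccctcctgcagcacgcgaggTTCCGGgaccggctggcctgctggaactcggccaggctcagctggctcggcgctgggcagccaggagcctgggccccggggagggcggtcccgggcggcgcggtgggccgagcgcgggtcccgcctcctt
CCND3, upstream internal start: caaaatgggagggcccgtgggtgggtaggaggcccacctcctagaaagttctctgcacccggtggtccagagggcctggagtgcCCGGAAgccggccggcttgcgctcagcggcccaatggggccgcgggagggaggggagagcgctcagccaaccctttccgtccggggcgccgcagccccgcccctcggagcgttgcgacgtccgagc
CCND3, downstream internal start: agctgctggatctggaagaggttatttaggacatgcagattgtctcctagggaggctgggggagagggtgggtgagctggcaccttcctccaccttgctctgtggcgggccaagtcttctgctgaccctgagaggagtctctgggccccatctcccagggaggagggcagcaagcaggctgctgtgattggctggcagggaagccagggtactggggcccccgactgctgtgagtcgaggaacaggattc
The core begins 186 bases before the start in CDKN1A and 166 bases before it in the first CCND3 stretch; the other CCND3 windows, and those of CCNE1, CDK4, CDK6 and CDKN1B, hold no CCGGAA. The E2F motifs GCGGGAA and GCGCGAA, found in 5.52% and 1.85% of all windows, were in none of the 9. The GC box GGGCGG was in 7 of the 9 and in 42.6% of all windows. GCGGGAA can overlap the GC box in the letters GCGG, and the ETS core can share its CC with the GC box read on the other strand. A match is a description of the letters and not a bound site.

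Genes around these 10 were read from lists of the pathway. Of the INK4 inhibitors, which block CDK4 and CDK6 alone, CDKN2A and CDKN2B had 0 counts in every library, where 3 counts would be worth 0.128 to 0.165 CPM; deletion of this locus is a known feature of the line. CDKN2C measured 126 ± 4.49 CPM in KO and 110 ± 5.86 CPM in control (log2 fold change 0.20, SE 0.06, with edgeR adjusted p = 0.0881), and CDKN2D measured 74.5 ± 11.4 CPM in KO and 68.8 ± 9.14 CPM in control (edgeR adjusted p = 0.642). Neither of the 2 tested INK4 genes passed edgeR's test (1 at an unadjusted p below 0.05, 0 with DESeq2 or limma-voom); with the replicate block 1 did, CDKN2C, higher in KO.

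Among 13 pocket protein, E2F and DP genes, 3 rose, 1 fell and 9 did not pass, around a median of 0.16 on the log2 scale. The 3 that rose are 23.1% of the list. Over all tested genes 3.28% were called higher and 6.42% lower. The activator E2F genes E2F2 (23.9 ± 1.53 CPM in KO and 17.0 ± 1.62 CPM in control, log2 fold change 0.49, SE 0.10, with edgeR adjusted p = 0.0156) and E2F3 (0.27, SE 0.06) and the atypical repressor E2F8 (0.31, SE 0.08) rose in KO. RBL2, the gene of the RB relative p130 that holds quiescent cells in check, fell to 31.2 ± 1.48 CPM in KO, against 39.6 ± 2.51 CPM in control (log2 fold change -0.34, SE 0.08, with edgeR adjusted p = 0.0239). RB1 itself measured a log2 fold change of 0.07 (SE 0.06, with edgeR adjusted p = 0.511). With the replicate block 7 rose and 2 fell, against 17.2% of all tested genes higher and 16.7% lower. Without 1 library between 0 and 4 of the 13 were called: 1 without KO replicate 1 or 2, 0 without control replicate 1 or 2 and 2 without control replicate 3. Over all genes, the fits without 1 library called 136 to 777 higher and 436 to 964 lower.

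Of 30 E2F target genes of the G1/S transition, 7 rose, none fell (0 also unadjusted) and 23 did not pass, and 29 of the 30 log2 fold changes (96.7%) were positive with a median of 0.21. Over all tested genes 50.7% were positive, and the 7 that rose are 23.3% of the list against the 3.28% called higher over all tested genes. RRM2, the small subunit of ribonucleotide reductase, CLSPN, a replication checkpoint adaptor, and CHAF1A, a chromatin assembly factor subunit, had the smallest adjusted p. RRM2 measured 399 ± 10.5 CPM in KO and 269 ± 6.83 CPM in control (log2 fold change 0.57, SE 0.06, with edgeR adjusted p = 6.12e-04), near the value of CCNE2, and CLSPN and CHAF1A had log2 fold changes of 0.46 and 0.27. With the replicate block 26 rose, against 17.2% of all tested genes. Without KO replicate 3, 14 rose, and 2 did so without KO replicate 1 or 2 or control replicate 1 or 2. Calls over all genes moved as well. Without KO replicate 3, 777 of 15026 tested genes were higher, against 483 of 14704 in the main fit. Without KO or control replicate 1 or 2, 136 to 183 genes were higher. These genes are not independent evidence for CCNE2, which belongs to the same E2F-induced class.

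The DREAM and MuvB list holds subunits of the core that represses cell cycle genes in quiescence and the activators MYBL1, MYBL2 and FOXM1, which act with that core later in the cycle. None of its 9 genes passed edgeR's test (1 at an unadjusted p below 0.05, 0 with DESeq2 or limma-voom). The smallest p-values were those of LIN9 (log2 fold change 0.31, SE 0.13, with edgeR adjusted p = 0.171) and FOXM1 (0.20, SE 0.10, with edgeR adjusted p = 0.249). With the replicate block 3 were higher, against 17.2% of all tested genes, and without KO replicate 3, 2 were higher. That last fit called 777 genes higher over all genes, against 483 in the main fit. Of 18 other cyclins, 1 rose and 2 fell: CCNA2, the S phase cyclin A2 (157 ± 5.24 CPM in KO and 135 ± 1.21 CPM in control, log2 fold change 0.22, SE 0.06, with edgeR adjusted p = 0.0408), rose, while CCNA1, cyclin A1 (17.0 ± 2.00 CPM in KO and 25.7 ± 1.28 CPM in control, log2 fold change -0.59, SE 0.10, with edgeR adjusted p = 0.00759), and CCNG2 (-0.34, SE 0.07), a cyclin linked to growth arrest, fell in KO. CCNA2 is also 1 of the 7 E2F targets that rose, so it is counted in both lists, and it was not called without a filter on low counts. The 1 cyclin that rose is 5.56% of the 18, where 3.28% of all tested genes were called higher and 6.42% lower. With the block 5 rose and 3 fell, against 17.2% of all tested genes higher and 16.7% lower. Without KO replicate 3, 3 rose and 2 fell, and without KO replicate 1 or 2 or control replicate 1 just 1 was called, lower in KO. Over all genes the fit without KO replicate 3 called 777 higher and 964 lower.

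Of 22 tested kinases and activators outside the 10, 3 rose: CDC25A, the phosphatase that activates CDK2 (66.0 ± 1.55 CPM in KO and 53.5 ± 0.948 CPM in control, log2 fold change 0.30, SE 0.06, with edgeR adjusted p = 0.0137), PKMYT1, an inhibitory kinase of CDK1 (0.35, SE 0.07), and CDK12, a transcriptional CDK (0.24, SE 0.05). CDK2, the partner of cyclin E, measured 97.9 ± 9.12 CPM in KO and 97.0 ± 5.66 CPM in control (log2 fold change 0.01, SE 0.08, with edgeR adjusted p = 0.939). The 3 that rose are 13.6% of the 22 tested, against 3.28% called higher over all tested genes. With the block 8 rose and 1 fell, against 17.2% of all tested genes higher and 16.7% lower. Without KO replicate 1, control replicate 1 or control replicate 2 none was called, and 5 were without KO replicate 3. Over all genes, 136 to 183 were higher in the former fits and 777 in the latter. Of 21 genes for ubiquitin ligases and other factors that turn over G1 proteins, FBXL2, an F-box gene at 7.34, 8.41 and 7.05 CPM in KO and 11.3, 12.2 and 9.91 CPM in control, fell (log2 fold change -0.55, SE 0.13, with edgeR adjusted p = 0.0272) and 20 did not pass. Over all tested genes 6.42% were called lower. FBXL2 was not called without KO replicate 1 or 3 or control replicate 1 or 2, and 2 others rose without KO replicate 3. In that last fit 777 genes were higher over all genes. SKP2, whose F-box protein marks p27 for degradation, measured 53.6 ± 0.718 CPM in KO and 49.7 ± 2.26 CPM in control (0.11, SE 0.06, with edgeR adjusted p = 0.34).

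CDKN1A was the member of this set best known as a p53 target, and the p53 gene of MDA-MB-231 is mutant. Of 27 tested p53 pathway genes, 2 rose and 25 did not pass, with a median log2 fold change of -0.01. None fell (2 at an unadjusted p below 0.05, 0 with DESeq2 or limma-voom). The 2 that rose are 7.41% of the 27 tested. Over all tested genes 3.28% were called higher and 6.42% lower. PLK2, a polo-like kinase gene (319 ± 7.70 CPM in KO and 217 ± 2.76 CPM in control, log2 fold change 0.56, SE 0.06, with edgeR adjusted p = 5.77e-04), and PMAIP1, which encodes the BH3-only protein NOXA (0.30, SE 0.08, with edgeR adjusted p = 0.0425), rose in KO. MDM2, the p53 ubiquitin ligase, measured a log2 fold change of 0.11 (SE 0.12, with edgeR adjusted p = 0.6). The block fit called 5 of the 27 higher and 4 lower, near the shares over all tested genes of 17.2% higher and 16.7% lower. Without any 1 library other than control replicate 3 just 1 p53 pathway gene was called. Over all genes, these fits called 136 to 777 higher and 436 to 964 lower.

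**Figure D5:**
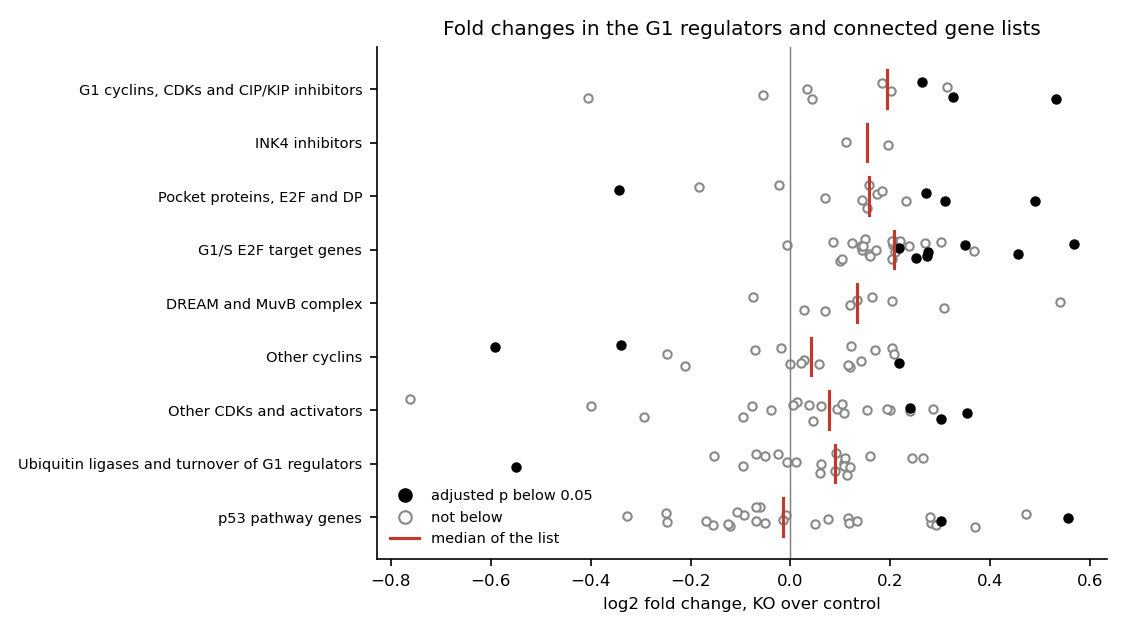
log2 fold change, KO over control (horizontal axis), of each tested gene in the 10 G1 regulators and in 8 connected gene lists; black points have an adjusted p below 0.05 and red bars mark each list's median. The E2F target genes have 29 of 30 points to the right of 0, and the p53 pathway genes lie on both sides.

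Over the 6 libraries and 10807 other genes with a mean of at least 5 CPM, the gene whose log2 CPM was most like that of CCND3 by Pearson's r was CDKN1A (0.998), followed by KANSL2 and WNT7B (0.996 each). For CDKN1A it was CCND3, followed by RRP12 (0.997) and CERS2 (0.995). For CCNE2 it was IL27RA (0.998), followed by SAMD9 (0.997) and the unnamed gene ENSG00000234160 (0.996). With so many genes and 6 libraries that share their group and replicate differences, values this high are a description alone.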

How the data were processed

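Poly(A) RNA of 6 libraries was sequenced, 3 KO and 3 control. Per the submitters' processing notes, reads passed through STAR 2.7.9a, FastQC 0.11.9, R 4.1.1 and featureCounts, with the build hg38. The kit was stranded, per the labels' protocols. The strand setting, annotation and featureCounts version were not given in the sources used here. The deposited file holds raw counts of reads per gene, whole numbers with a different total per library. Groups and replicate numbers came from the sample titles, and columns from the library names. Genes were kept by filterByExpr, scaled by TMM and tested in edgeR 4.0.16 (glmQLFit, robust, glmQLFTest, group as single term, R 4.3.3), with Benjamini-Hochberg adjustment over all tested genes. DESeq2 1.42.0, limma-voom 3.58.1, other filters, a replicate block and leaving out libraries were alternatives. Functions were tested on simulated data drawn with the spread of the block fit and without a shift of replicate 3. The main test was thus not checked under that shift. Intervals use the fit's own SE and degrees of freedom.

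CCNA2, CCNG1 and FBXW7 each stand in 2 lists. The genes described and the gene lists were chosen with earlier results of these data known. Named genes are the 10 members, ETV1, ETV4 and ETV5, and in each list up to 3 per direction with the smallest adjusted p, or the 2 with the smallest p where none passed; RB1, CDK2, SKP2 and MDM2, the overlapping genes, CDKN2A, CDKN2B and the marker genes were named outside this rule, with their values seen. Exon lengths and positions are from GENCODE 29 (GRCh38), and the counting may have used another annotation. Both groups carry replicate numbers 1 to 3, and deviations of same-numbered libraries correlated across genes at 0.55, 0.45 and 0.83. Deviations from a shared group mean are not independent of each other, so these values do not establish a pairing. The main test took no pairing, and the numbers served as a block in an alternative fit. KO 1 with control 2 (0.58) and KO 2 with control 1 (0.59) correlated more than same-numbered libraries 1 and 2, so the values set replicate 3 apart and do not tell numbers 1 and 2 apart. The labels do not say that the numbers pair libraries. A count of 0 allows up to 3 counts, and this limit covers counting error only. Between replicates of a group, chi-square over its degrees of freedom was at least 4.19, so no 2 libraries matched within sampling noise.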

Additional observations from a re-analysis of the deposited data

How the results depend on the processing

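With TMM replaced by DESeq2's size factors, with limma-voom, and with at least 1 CPM in 3 libraries required, no count of calls described above moved by more than 1.5 times. The DESeq2 Wald test called 2 ubiquitin ligase genes in place of 1. Without a filter on low counts the calls were 1 for DREAM and MuvB, 3 for the ubiquitin ligases and 4 for the p53 pathway. CCNA2 was then not called: other cyclins had 0 higher and 3 lower, and 6 of the 7 E2F target calls were kept among 9. With the replicate block 2522 genes were higher and 2461 lower (50.6% and 49.4% of calls), against 483 and 944 (33.8% and 66.2%) without it, and it changed no call of the 10 genes other than those given. Over all tested genes it called 17.2% higher and 16.7% lower. With both directions together, its calls were 6 of the 10 genes, 1 of 2 INK4, 9 of 13 pocket protein and E2F and 26 of 30 E2F target genes. They were also 3 of 9 DREAM and MuvB, 8 of 18 other cyclin, 9 of 22 other kinase, 3 of 21 ubiquitin ligase and 9 of 27 p53 pathway genes. Without both replicate 3 libraries, 1731 genes were higher and 2023 lower, 11.7% and 13.7% of those tested. With both directions together, 6 of the 10 genes, 1 INK4, 8 pocket protein and E2F and 22 E2F target genes were then called. So were 3 DREAM and MuvB, 6 other cyclin, 9 other kinase, 3 ubiquitin ligase and 11 p53 pathway genes. Leaving out 1 library gave 136 to 777 higher and 436 to 964 lower genes, 1 to 4 of the 10 genes higher and none lower. The lists then had 0 to 4 pocket protein and E2F, 2 to 14 E2F target, 0 to 2 DREAM and MuvB, 1 to 5 other cyclin, 0 to 5 other kinase, 0 to 2 ubiquitin ligase and 1 to 2 p53 pathway genes. The cause of these shifts was not tested.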
